A study of Mus musculus with 3 samples.

Results

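The barcodes described here are those of the replicate 1 table in which more than 20% of the unique molecular identifiers (UMIs, each a tag for 1 captured RNA molecule) fell in the 13 rows of genes encoded in mitochondrial DNA. They are 255 of the 1146 barcodes of that table, 22.3% (95% exact Clopper-Pearson interval 19.9% to 24.8%, counting error only), and are called mitochondrial-high barcodes. The comparison barcodes are the other 891 of the same table. Both sets were selected on the mitochondrial share of UMIs, so that share is given only as a description, and UMIs outside the mitochondrial rows are called other UMIs.

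The study dissociated pancreatic islets of mice with the genotype Ngn3-CreERT:R26-CAG-TdTomato, collected 10 days after tamoxifen, and counted RNA in droplets from the 3-prime end. A tamoxifen-activated Cre driven from Neurog3 (Ngn3) switches on the red reporter TdTomato at the ROSA26 locus in cells where the driver is active. All 3 samples, from 6 mice in all, carry both alleles, received tamoxifen and form 1 group, replicates 2 and 3 pooling 2 mice each, and no age is given in the labels. No sample without tamoxifen or without Cre is among them. The replicate 1 table holds 27474046 UMIs over 16157 genes, with 536 to 112260 UMIs per barcode and a median of 18140. It is 1 library, so no comparison below has a replicate check or a test, and intervals cover counting error only. "Higher" and "lower" gene counts mean ratios past 2-fold. The joint table of replicates 2 and 3 held 0 of 13042 distinct barcodes over 20% mitochondrial, its highest being 19.99%, so the pattern could not be looked for there. Of those joint barcodes, 6 shared their barcode sequence with a replicate 1 barcode.

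Mitochondrial DNA encodes subunits of respiratory chain complexes and of ATP synthase, and their transcripts stay inside the organelle, behind its own membranes. Most other messenger RNA lies in the cytosol, while a few long noncoding RNAs, Malat1 and Neat1 among them, are kept in the nucleus. Barcodes with a high mitochondrial share are commonly removed in single-cell work, because a cell whose outer membrane has opened can lose cytosolic RNA and keep organelles. In an islet the most abundant messages are those of the hormones: insulin in beta cells, glucagon in alpha cells, somatostatin in delta cells and pancreatic polypeptide in PP cells.

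The mitochondrial rows themselves kept nearly the same make-up in both sets. The complex IV subunit mt-Co3 took 22.2% of mitochondrial UMIs in mitochondrial-high barcodes and 21.3% in the comparison barcodes. The ATP synthase subunit mt-Atp6 took 20.3% and 19.8%, and mt-Cytb of complex III took 9.72% and 10.2%. The complex IV subunit mt-Co1 took 11.8% and 14.2%. Over all 13 rows the log2 ratio of these shares ran from -0.34 for mt-Atp8 to 0.44 for mt-Nd6, the lowest row at 0.0578% and 0.0424%, so no row was past 2-fold. Among glucagon-top barcodes the row furthest from 0 was mt-Atp8, at -0.54, and among insulin-top barcodes mt-Nd6, at 0.51. The mt-Atp8 and mt-Atp6 reading frames overlap, so molecules from the shared bases cannot be given to one row, and the sequence is shown for that reason. It lies at chrM:7927-7969 of GRCm38 (mm10), plus strand, in the GENCODE vM21 annotation. It is 43 bases long, with the start codon of mt-Atp6 and the stop codon of mt-Atp8 in capitals.
mt-Atp8/mt-Atp6 overlap: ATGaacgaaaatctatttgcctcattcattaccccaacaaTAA

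The mitochondrial-high barcodes differed from the rest in the number of their other UMIs more than in the number of their mitochondrial ones. Mitochondrial UMIs per barcode ranged from 187 to 5250 with a median of 1636, against 0 to 5778 and a median of 1277 in the comparison barcodes, and the ranges overlapped almost wholly. Other UMIs ranged from 374 to 14748 with a median of 2315, against 478 to 109320 and a median of 25440, which is 11.0 times lower. The set therefore held 25.6% of the mitochondrial UMIs of the library and 2.58% of its other UMIs. Both quantities enter the rule and are a description. The share ran on from 20% with no gap: the nearest barcodes outside the limit were at 19.49%, 19.45% and 19.33% and the nearest inside at 20.04%, 20.16% and 20.20%. There were 37 barcodes at 15% to 20%, 36 at 20% to 25%, 70 at 30% to 40% and 62 over 50%.

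**Figure D1:**
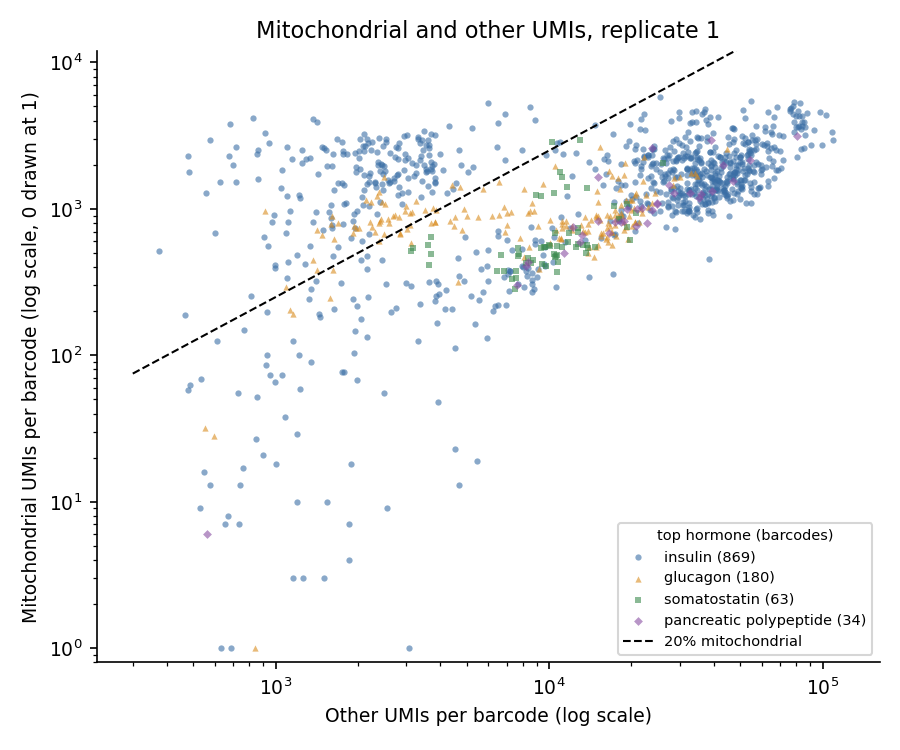
Each point is 1 of 1146 barcodes of replicate 1, with other UMIs on the x axis and mitochondrial UMIs on the y axis (both log scales), marked by top hormone; points above the dashed line are over 20% mitochondrial. The 255 barcodes above the line lie at the mitochondrial counts of the main cloud but at lower other counts, with medians of 2315 and 25440 other UMIs.

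By top hormone, the highest of insulin (Ins1 plus Ins2), glucagon (Gcg), somatostatin (Sst) and pancreatic polypeptide (Ppy) in a barcode, the set was made of insulin and glucagon barcodes. Insulin was top in 209 of the 255 (82.0%, 76.7% to 86.5%) and in 660 of the 891 comparison barcodes (74.1%). Glucagon was top in 45 (17.6%, 13.2% to 22.9%) and in 135 (15.2%). Somatostatin was top in 1 mitochondrial-high barcode and 62 comparison barcodes, and pancreatic polypeptide in 0 and 34. Read the other way, 24.1% of the insulin-top barcodes (21.2% to 27.0%) and 45 of 180 glucagon-top barcodes were over 20% mitochondrial, against 1 of 63 somatostatin-top barcodes (1.59%, 0.0402% to 8.53%) and 0 of 34 pancreatic polypeptide-top barcodes (up to 10.3%). For a count of 0 among the 255, the exact upper limit is 1.44%, and 3 counts would make 1.18%. The rates above are by label, and background insulin, described below, can turn a somatostatin label into an insulin label. The single somatostatin-top barcode had 10240 other UMIs, 21.8% mitochondrial UMIs and 8.69% ribosomal protein UMIs. At a limit of 10% mitochondrial instead of 20%, 14 of 354 barcodes were somatostatin-top, and over 50% 61 of 62 were insulin-top.

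Insulin RNA occurred in every barcode, so a top hormone is not by itself a cell type. Glucagon-top barcodes, which should lack insulin, held a median of 91 insulin UMIs over 20% mitochondrial and 102 at 20% or less (quartiles 80 to 106 and 87 to 116.5). Somatostatin-top comparison barcodes held 109.5 insulin UMIs, beside a median of 1512 Sst UMIs. Gcg in glucagon-top barcodes had medians of 244 UMIs in mitochondrial-high and 4881 in comparison barcodes. A fall in Sst as large as this would take it below the insulin background. Such barcodes would be labelled insulin-top, so the count of somatostatin-top barcodes in the set may be too low. Among the insulin-top mitochondrial-high barcodes, 39 had insulin at under 10% of other UMIs, and their median of 96 insulin UMIs was at that background. Those 39 carried a median of 1 Sst UMI (quartiles 0 to 2), and whether any were relabelled somatostatin barcodes was not tested. They also carried a median of 18 Gcg UMIs, against 4 in the 170 with at least 10% insulin. For this reason the insulin-rich barcodes, 170 mitochondrial-high and 514 comparison barcodes with insulin at 10% or more of other UMIs, are described beside the whole insulin-top class. This limit was chosen after the data were seen.

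Markers of the non-endocrine cells of the islet were almost missing from the set. After thinning to 1000 other UMIs, a barcode counted if it held at least 2 markers and at least 3 UMIs of a list. By this rule 0 of 228 mitochondrial-high barcodes carried macrophage markers (upper limit 1.61%), against 42 of 863 comparison barcodes (4.87%). For fibroblast markers the counts were 0 and 36, for endothelial markers 0 and 25, for pericyte markers 0 and 12, and for duct markers 0 and 9. Comparison barcodes that were insulin-top with insulin under 10% made up 42 of the 42 with macrophage markers, 35 of the 36 with fibroblast markers, 25 of the 25 with endothelial markers, 12 of the 12 with pericyte markers and 6 of the 9 with duct markers. Acinar markers were the exception, with 2 and 3 barcodes. Schwann, B cell, T cell and red blood cell markers gave 0 in both sets.

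Per barcode, and before any thinning, few RNAs abundant in the comparison barcodes stayed near their level there. Long noncoding RNAs of the nucleus were among those few. Few other UMIs are part of the rule, so the contrast between RNAs is described here and not the fall as such. In the insulin-rich class, Malat1, a long noncoding RNA of nuclear speckles (chr19:5795690-5802672, minus strand), had a median of 178 UMIs over 20% mitochondrial and 248.5 at 20% or less. In the same barcodes the summed ribosomal protein messages had medians of 31 and 1154 UMIs, 37.2 times lower, and insulin had medians of 413 and 25050 UMIs, 60.7 times lower. Glucagon-top barcodes had medians of 310 and 316 UMIs for Malat1, 64 and 1628 for ribosomal protein messages (25.4 times lower) and 244 and 4881 for glucagon. The Malat1 quartiles of the insulin-rich class, 89 to 316.25 and 148 to 417.25 UMIs, overlapped, whereas the ribosomal quartiles, 20 to 47.75 and 902.25 to 1559.5, lay apart.

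**Figure D2:**
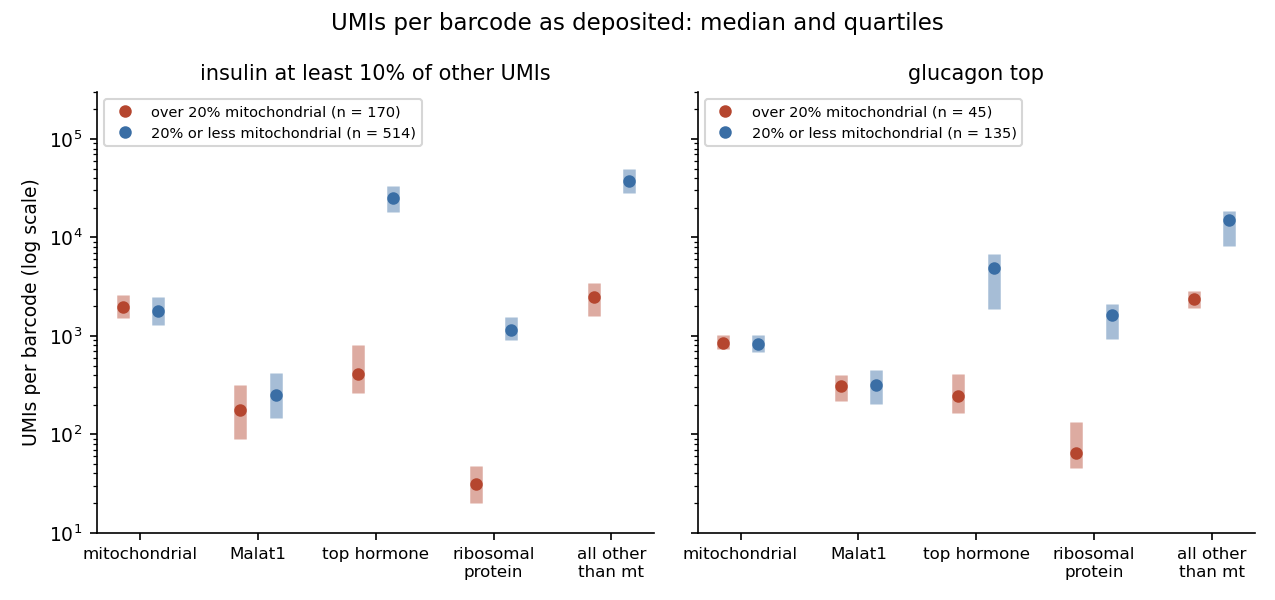
Median UMIs per barcode as deposited (points, log scale) with the range from first to last quartile limit (bars), for barcodes over 20% mitochondrial and at 20% or less, in the insulin-rich class (left) and the glucagon-top class (right). Mitochondrial and Malat1 bars overlap between the sets, and top hormone, ribosomal protein and all other UMIs do not.

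Gene by gene, 327 genes outside the mitochondrial rows averaged at least 5 UMIs per comparison barcode of the insulin-rich class. The median of these genes was 18.3 times lower in the mitochondrial-high barcodes. A fall of this size in the typical gene follows from the rule, since other UMIs as a whole were 15.1 times lower in this class. Only the differences between genes are a result. Only 10 of the 327 kept more than 0.5 of the comparison mean, and 226 kept less than 0.1. Genes under 5 UMIs per comparison barcode were left out, whatever their count in the mitochondrial-high barcodes. The counts therefore cover only genes abundant in the comparison barcodes. The 10 included Malat1 (227.9 against 303.9 UMIs per barcode, a ratio of 0.750) and Neat1, which builds nuclear paraspeckles (7.41 against 10.3). They also included Meg3, a noncoding RNA of an imprinted locus (23.5 against 34.3), and Kcnq1ot1, an imprinted antisense RNA (3.22 against 5.19). The rest were Xist, the X-inactivation RNA, Gm42418, annotated as a long noncoding RNA, Nktr and the immediate early gene Fosb, with Luc7l2 and Son, which serve splicing. In the glucagon-top class, 11 of 193 such genes kept more than 0.5, and 5 genes did so in both classes: Malat1, Meg3, Xist, Gm42418 and Fosb. Ins1 and Ins2 were among the 11, at the background level given above. By the same measure, 11 mitochondrial rows had ratios of 0.872 to 1.23 in the insulin-rich class and 10 had 0.890 to 1.02 in the glucagon-top class. The mitochondrial sum also enters the rule, so these ratios are a description.

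The remaining comparisons set barcodes at equal depth, 1000 other UMIs each, and give levels as UMIs per 10000 other UMIs. At this depth an insulin-top barcode held a median of 169 insulin UMIs over 20% mitochondrial and 658 at 20% or less, and when 1 message takes less of a fixed depth the others take more. Thinning was therefore repeated without the 5 hormone rows. In the insulin-top class, 183 mitochondrial-high and 636 comparison barcodes reached the depth, and of 1067 genes 592 were more than 2-fold higher (55.5%) and 199 lower (18.7%), with a median log2 ratio over all genes of 1.34. Without the hormone rows, 581 of 1949 genes were higher (29.8%) and 533 lower (27.3%), with a median of 0.24. Among insulin-rich barcodes 599 of 932 were higher (64.3%) and 96 lower (10.3%), and without the hormone rows 559 of 1986 were higher (28.1%) and 511 lower (25.7%). Among glucagon-top barcodes, 44 and 132 in number, 409 of 1171 were higher (34.9%) and 198 lower (16.9%), and without the hormone rows 476 of 1713 were higher (27.8%) and 354 lower (20.7%). Over all hormone classes together, 564 of 1091 genes were higher (51.7%) and 208 lower (19.1%), from 228 of the 255 mitochondrial-high and 863 of the 891 comparison barcodes. Ratios below should be read against these medians.

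The summed level of nuclear-retained RNAs was more than 2-fold higher in both hormone classes, with and without the hormone rows. Malat1 stood at 1006 per 10000 in insulin-top mitochondrial-high barcodes and 148.6 in the comparison barcodes, a log2 ratio of 2.76 (2.72 to 2.80). A thinned barcode held from 0 to 358 Malat1 UMIs with a median of 86, against 0 to 375 with a median of 8, so the ranges overlapped although the medians lay far apart. Meg3 stood at 107.7 and 11.0 (log2 3.29), Kcnq1ot1 at 15.7 and 1.70 (3.21), and Neat1 at 26.8 and 4.32 (2.63). Of the 6 genes of this list, 5 were measured and 5 were higher, beside 55.5% of all genes, and the log2 ratio of their sum was 2.80, or 0.89 when barcodes were weighted to equal native depth. Without the hormone rows the insulin-rich ratios were 1.98 for Malat1, 1.98 for Meg3, 2.34 for Neat1 and 2.04 for Kcnq1ot1, beside a median gene of 0.23. Glucagon-top barcodes held Malat1 at 1388 and 361.6 (1.94) and Meg3 at 143.0 and 36.0 (1.99), with 5 of 5 measured genes of the list higher beside 34.9% of all genes. There, 4 of 5 were higher without the hormone rows, beside 27.8% of all genes, and Neat1, at 1.86 and 1.07 per 10000 (log2 0.80), was not past 2-fold. All genes annotated as long noncoding RNA together took 14.9% of UMIs in insulin-top mitochondrial-high barcodes and 2.39% in the comparison barcodes. Without Malat1 and Meg3 they took 3.77% and 0.793%. Gm42418 (115.6 and 24.7 per 10000) and AY036118 (16.5 and 5.30) count here by annotation alone, and the origin of their UMIs was not tested.

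Messages for cytosolic ribosomal proteins, the subunits of the ribosome, were lower in both classes under both scalings. In the insulin-top class 71 of 77 measured genes were more than 2-fold lower and 0 higher, beside 18.7% lower of all genes. Their summed level was 158.9 per 10000 against 556.1 (log2 -1.81, -1.86 to -1.75). A thinned barcode held 4 to 89 of these UMIs with a median of 14, against 7 to 351 with a median of 34. Rps24 stood at 4.10 and 15.1 (log2 -1.88), Rps27a at 3.93 and 10.8 (-1.46), Rpl41 at 6.83 and 16.4 (-1.27) and Rpl13 at 4.97 and 11.7 (-1.23). The insulin-rich class gave 57 of 73 lower, beside 10.3% of all genes, with 139.7 against 326.3 per 10000. Without the hormone rows it gave 78 of 79, beside 25.7% of all genes, a log2 ratio of the sums of -2.38. Of the glucagon-top ratios, 69 of 79 were lower, beside 16.9% of all genes, at 373.4 against 1091 per 10000. Per barcode the medians were 28.5 and 112.

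Nuclear-encoded subunits of oxidative phosphorylation, which join the mitochondrial-encoded ones in the same complexes, did not follow the mitochondrial rows. In the insulin-top class 17 of 33 measured genes were more than 2-fold lower, beside 18.7% of all genes, and 0 higher, with a summed level of 57.7 per 10000 against 107.1 (log2 -0.89). Cox7c of complex IV stood at 0.820 and 2.39 (-1.54), and Atp5h of ATP synthase at 0.820 and 2.36 (-1.53). Of the insulin-rich ratios, 9 of 28 were lower (10.3% of all genes) and 1 higher, and without the hormone rows 54 of 59 were lower (25.7% of all genes) and 0 higher, at 76.5 against 262.7 per 10000. In the glucagon-top class 25 of 41 were lower, beside 16.9% of all genes, and 0 higher, with 62.5 against 141.2.

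**Figure D3:**
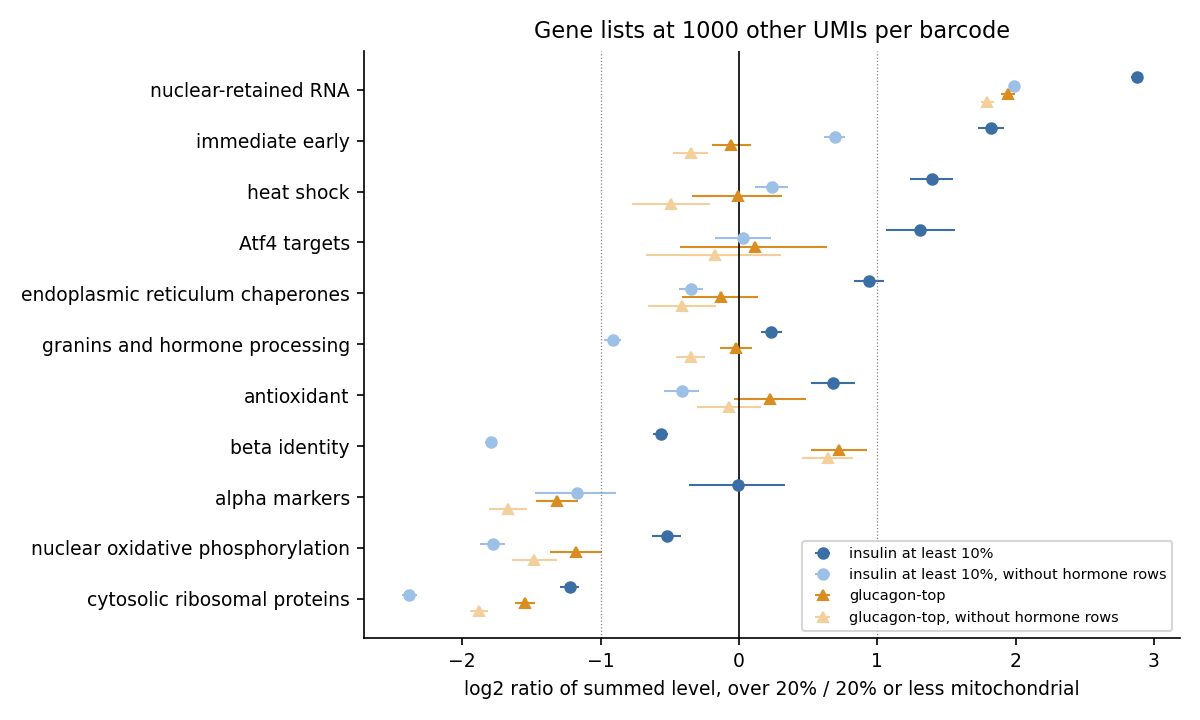
Log2 ratio of the summed level of 11 gene lists, barcodes over 20% mitochondrial over those at 20% or less, each thinned to 1000 other UMIs with and without the hormone rows; bars are 95% intervals of the ratio of UMI sums, and dotted lines mark 2-fold. Nuclear-retained RNA lies to the right and ribosomal protein and oxidative phosphorylation genes to the left of 0 in every version, while the stress lists lie right of 0 in the insulin-rich class and nearer to 0 without the hormone rows or in the glucagon-top class.

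Hormone and secretory messages divided. Ins2 stood at 1409 per 10000 and 3797 in the insulin-top class (log2 -1.43), Ins1 at 465.8 and 1381 (-1.57), and Iapp, which encodes the co-secreted peptide amylin, at 113.0 and 262.6 (-1.22). All 3 turned positive (0.80, 0.72 and 0.59) when barcodes were weighted to equal native depth instead of thinned, where the shallow comparison barcodes were mostly of low insulin. At 2000 to 4000 other UMIs, 92 of 134 mitochondrial-high barcodes and 4 of 38 comparison barcodes were insulin-rich. Some genes of the beta cell membrane and granule, named because they were past 2-fold, lay on the other side. Most of the granin and hormone-processing list was not higher, and Pcsk2 lay under the median gene of 1.34. Abcc8, the sulfonylurea receptor of the potassium channel that gates insulin release, stood at 13.9 and 1.97 (2.83), Slc30a8, the granule zinc transporter, at 17.3 and 4.36 (1.99), Ptprn2, a granule membrane phosphatase, at 2.95 and 0.299 (3.30), and Pcsk2, a prohormone convertase, at 20.7 and 8.81 (1.23). Of 15 measured beta identity genes 11 were higher and 1, Iapp, was lower, beside 55.5% and 18.7% of all genes. The median gene of the list was at 1.86, beside 1.34 over all genes, while the summed level, most of it Iapp, was at -0.39. Without the hormone rows in the insulin-rich class, 3 of 16 of these were higher and 2 lower, beside 28.1% and 25.7% of all genes. Abcc8 kept 1.43 there and Slc30a8 was at 0.48, and of the processing genes Ptprn2 was at 2.30 and Pcsk2 at -0.23. Granin and hormone-processing genes had 4 of 12 higher in the insulin-top class, beside 55.5% of all genes (125.8 against 91.5 per 10000). Among insulin-rich barcodes without the hormone rows they had 1 of 13 higher and 6 lower, beside 28.1% and 25.7% of all genes. Markers of other endocrine types in the insulin-rich class summed to 6.30 and 6.33 per 10000 for alpha cells, 0.480 and 1.12 for delta cells and 4.73 and 10.1 for PP cells. Cell cycle genes summed to 2.60 and 0.782 there (log2 1.74), beside a median gene of 1.60. In the insulin-top class with native depth weighted, the cell cycle list was at -1.52. Among glucagon-top barcodes Gcg stood at 1277 and 2999 (-1.23) and the alpha cell marker Ttr, transthyretin, at 83.0 and 221.9 (-1.42).

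Stress and early response genes depended on the class and the scaling. Among insulin-rich barcodes the immediate early list stood at 127.8 per 10000 against 36.2, with 8 of 9 genes higher, the heat shock list at 41.6 against 15.8, with 6 of 9, and the endoplasmic reticulum chaperone list at 76.0 against 39.6, with 6 of 15, beside 64.3% of all genes. Named members that were higher in the insulin-top class included the transcription factor Fosb at 32.4 and 5.47 (log2 2.57), the chaperone Hspa5 at 16.9 and 5.68 (1.58), and Herpud1 of endoplasmic reticulum degradation at 5.63 and 1.32 (2.09). Also higher were the stress factor Ddit3 at 3.11 and 0.692 (2.17) and the heat shock protein Hsph1 at 4.32 and 0.503 (3.10). Pdia3 of the chaperone list was lower. Without the hormone rows in the insulin-rich class, the immediate early list was at 0.69, the heat shock list at 0.24, the Atf4 target list at 0.03 and the chaperone list at -0.34, so that only the first of these was well above the median gene of 0.23. Fosb kept 1.74 and Hsph1 2.01 there, and Hspa5 0.69, while Pdia3 was at -2.20 (1.81 and 8.30 per 10000). With the hormones kept, the glucagon-top values of the same lists were at -0.06, -0.01, 0.12 and -0.13, beside a median gene of 0.49. Weighted to equal native depth, the insulin-top immediate early list was at -0.48 in place of 0.88. Of 10 measured antioxidant genes 2 were higher and 3 lower in the insulin-top class, beside 55.5% and 18.7% of all genes. Among the lower ones were Prdx1 (0.710 and 4.21, log2 -2.57) and Gpx1 (0.601 and 2.63, -2.13). The comparison barcodes of this class include those with macrophage and fibroblast markers. Over the other settings Prdx1 ran from -4.18 to -0.88 and Gpx1 from -3.89 to -0.19. In the insulin-rich class without the hormone rows Prdx1 was at -1.96. The list of mitochondrial stress and mitophagy genes had 0 measured members in the insulin-top class, with 158 and 425 UMIs in all. The p53 and apoptosis list had 1, with summed levels of 5.19 and 5.25 per 10000 (log2 -0.02), but the log2 ratio was 1.38 in the insulin-rich class and -1.35 with native depth weighted.

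The genes with the highest ratios in the insulin-top class were low messages with 35 to 113 thinned UMIs in the mitochondrial-high barcodes. They were Gtpbp2 (log2 3.76), Rgs11, a regulator of G protein signalling (3.75), Mcf2l (3.66), Olfm4 (3.64), the secreted glutathione peroxidase Gpx3 (3.62), the RNA-binding protein Tia1 (3.62), the calcium channel subunit Cacna1a (3.62), the noncoding RNA AI480526 (3.604), Akap8l (3.56), Crebzf (3.55), Eml5 (3.52) and Rad51ap2 (3.49). Without the hormone rows these lay between 1.68 for Mcf2l and 2.54 for Rad51ap2, and weighted to equal native depth between 1.34 for Akap8l and 3.29 for Rad51ap2, with Gtpbp2 at 1.63, Olfm4 at 1.45 and Crebzf at 1.51. Gpx3 alone of them passed no level minimum in the insulin-rich class, and in the glucagon-top class it stood at 24.1 and 12.5 per 10000. The level minimum is a mean over both sets. In the insulin-top class all 12 genes passed it only through their level in the mitochondrial-high barcodes, AI480526 for example at 1.91 and 0.157 per 10000. Genes as low without such a rise were not measured, so the ranking favours high ratios.

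The lowest ratios in that class belonged to genes of other cell types and not to beta cell genes. C3 (log2 -6.67) and Saa3 (-6.54) are acute phase genes; Sparc (-6.64), Mgp (-6.59), Dcn (-6.20) and Col3a1 (-5.74) encode matrix proteins. Lyz2 (-6.60), Ctss (-5.66) and Apoe (-5.44) are expressed in macrophages, and the list ends with S100a6 (-6.02) and Ifitm3 (-5.94). Each rests on 1 to 6 UMIs in the mitochondrial-high barcodes, and Cd74, with 0 against 636 UMIs, was at least 61.0-fold lower by a limit of 3 UMIs in the set. All passed the level minimum only through their level in the comparison barcodes. None of these 12 genes passed the level minimum in the insulin-rich class, where the macrophage list summed to 6 and 13 UMIs and the fibroblast list to 1 and 13.

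Ratios rose with gene length in both classes. Genes could pass the level minimum through 1 set alone, and length was not set apart from expression level. Protein-coding genes, without the ribosomal and oxidative phosphorylation lists, were divided into quartiles by the longest annotated protein-coding transcript. Without the hormone rows, the insulin-rich median log2 ratio went from -1.31 in the shortest quartile (0.371 to 1.88 kb) through -0.03 and 0.68 to 1.05 in the longest (5.77 to 27.9 kb). The glucagon-top medians were -0.94, 0.02, 0.73 and 0.87. With the ribosomal and oxidative phosphorylation genes put back, 343 of 484 genes in the shortest insulin-rich quartile were more than 2-fold lower and 20 higher, and in the longest 9 of 486 were lower and 253 higher. Quartiles of the genomic span of the gene gave -0.75, -0.03, 0.40 and 0.98 in the insulin-rich class. The whole scale moved up with the hormones kept, but the order of the quartiles stayed.

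**Figure D4:**
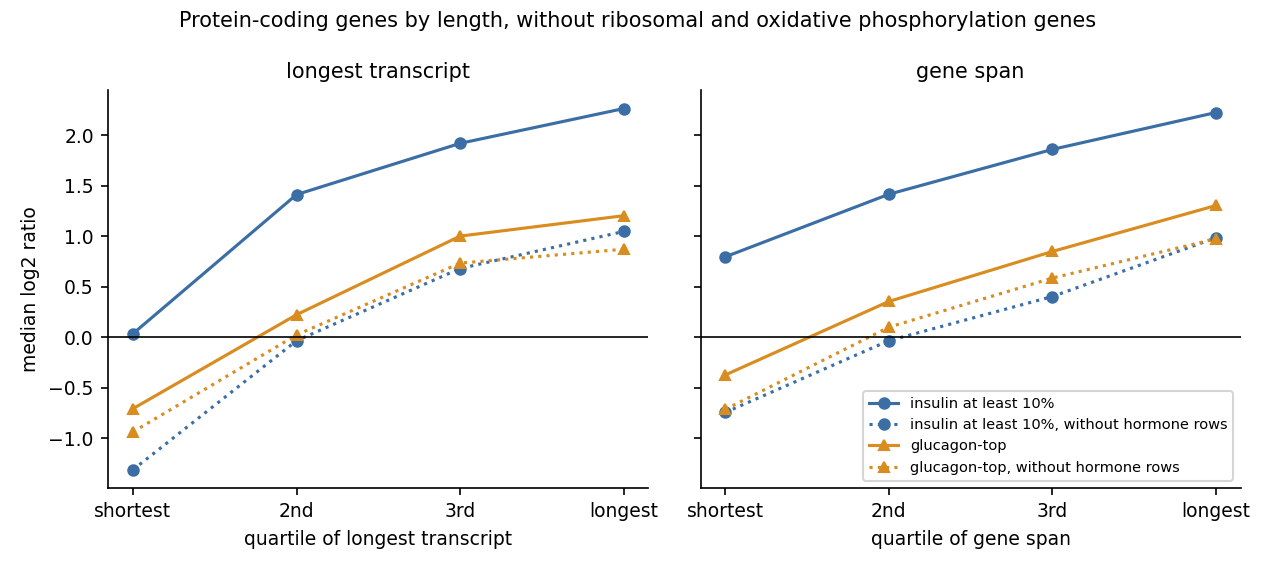
Median log2 ratio of protein-coding genes, barcodes over 20% mitochondrial over those at 20% or less, by quartile of longest transcript (left) and of gene span (right); solid lines keep the hormone rows and dotted lines leave them out. In every line the median is lowest in the shortest quartile and highest in the longest, from -1.31 to 1.05 for transcripts in the insulin-rich class without hormones.

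The number of genes per barcode depended on the hormone rows. At 1000 other UMIs, mitochondrial-high barcodes showed 235 to 677 genes with a median of 576, and comparison barcodes 122 to 747 with a median of 311, a ratio of 1.85. With the hormone rows left out, the medians were 683 and 675 and the ratio 1.01 (1 to 1.03, from the interval of the medians). As deposited, unthinned, the medians were 1156 and 3733 genes.

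The level of these groups was then followed along the mitochondrial share, at equal depth, with shares above and below the limit. Among insulin-rich barcodes, nuclear-retained RNA stood at 131.4, 119.3 and 239.2 per 10000 in the bins of 0 to 5%, 5 to 10% and 10 to 20%, and at 1049, 1009 and 939.7 in those of 20 to 30%, 30 to 50% and over 50%. The step lay near the limit, with 37 barcodes in the bin below and 18 in the bin above, a thin bin. Past it the sum did not increase further, but its members went opposite ways: Malat1 stood at 956.7, 874.3 and 750.8 per 10000 and Meg3 at 61.1, 92.0 and 128.4. Ribosomal protein messages stood at 311.5, 361.0 and 303.0 below the limit and at 162.2, 133.4 and 144.3 above it. Insulin stood at 67.2%, 63.9% and 57.6% of other UMIs below and at 32.6%, 21.4% and 18.1% above. Glucagon-top barcodes differed: the bin of 10 to 20% (32 barcodes) already held 909.1 nuclear-retained RNA per 10000, between 271.1 in the bin below and 1510 in the bin above, and median other UMIs there were 4942, against 14890 and 2516. Depth as deposited moved with the mitochondrial share in both classes, and its part in these levels beyond the thinning was not tested.

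**Figure D5:**
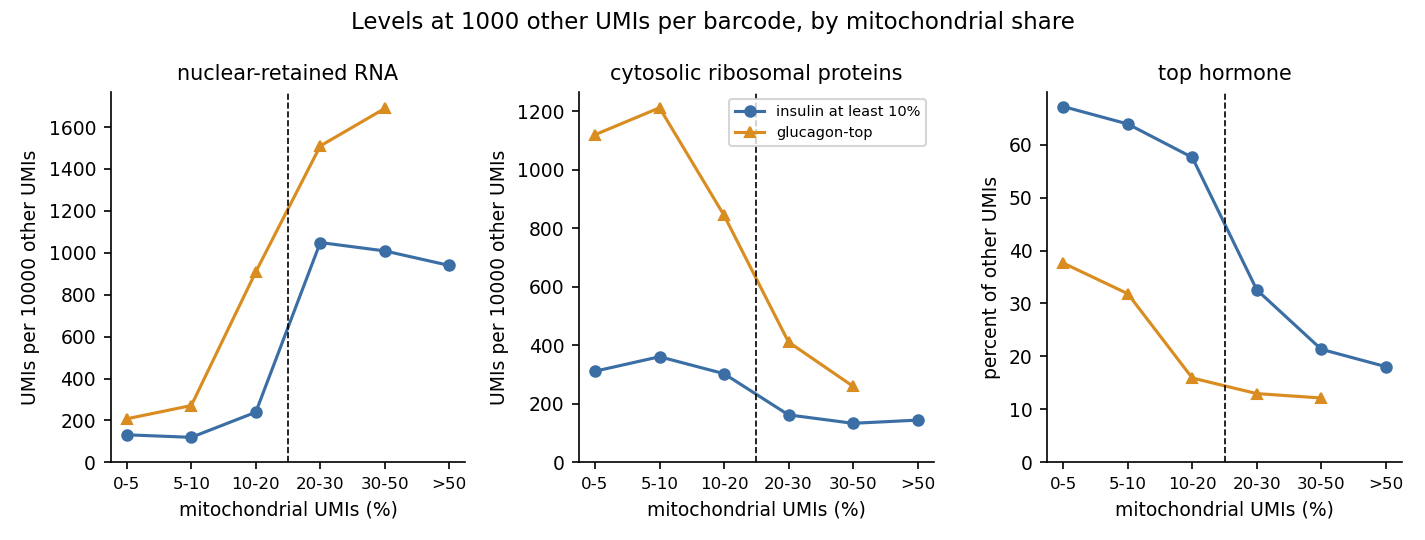
Level of the nuclear-retained RNA list, the cytosolic ribosomal protein list (UMIs per 10000 other UMIs) and the top hormone (percent of other UMIs) in bins of mitochondrial share, each barcode thinned to 1000 other UMIs; the dashed line is the 20% limit. Insulin-rich barcodes step from 239.2 to 1049 nuclear-retained UMIs per 10000 across the limit, and glucagon-top barcodes are already at 909.1 in the bin of 10 to 20%.

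RNA from other cell types was followed per barcode for comparison, since free RNA enters every droplet. In the insulin-rich class at least 1 acinar UMI was found in 51.2% of mitochondrial-high and 53.1% of comparison barcodes, although acinar cells are not insulin cells. As a level the same counts were 2.95 and 0.318 per 10000 other UMIs, over fewer other UMIs. Gcg in the insulin-rich class had medians of 4 and 7 UMIs per barcode.

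The driver and the reporter were not detected in the set. Neurog3 had 0 UMIs in 255 mitochondrial-high barcodes, with an exact upper limit of 1.44% (3 counts would make 1.18%), against 33 of 891 comparison barcodes (3.70%, 51 UMIs). TdTomato had 0, against 15 of 891 (1.68%, 16 UMIs). At 1000 other UMIs, 0 of 228 and 4 of 863 barcodes carried Neurog3 and 0 and 1 carried TdTomato, so a difference was not detectable at this depth.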

How the data were processed

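For replicate 1 the authors deposited whole-number UMI counts per gene and barcode. The submitters' processing notes name FastQC 0.11.8, cutadapt 2.5 and Cell Ranger 3.2.0, with mm10 as the build. How its barcodes were filtered is not given in the sources used here. The joint table of replicates 2 and 3, deposited by the authors as the natural log (ln) of 1 plus UMIs per 10000 (Cell Ranger 5.0.0, Seurat 4.0.0, per the submitters' processing notes), was read only for mitochondrial shares and barcodes. Its 16050 columns include 3008 repeats, which were dropped.

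Mitochondrial rows are those starting mt-. Each replicate 1 barcode was thinned without replacement to 1000 other UMIs (seed 1), leaving out shallower barcodes, and UMIs were summed over each set. Genes needed a mean of 1 per 10000 over both sets. Ratios are of summed UMIs, a sum of 0 replaced by 3 UMIs, with exact 95% intervals that cover counting error only. Doublets were not called. Barcodes with a second hormone (1 mitochondrial-high, 20 others) were left out as an alternative. With 1 library no test was made. The procedure was tested on simulated data. Analysis used Python 3.11.15, numpy 2.4.6, scipy 1.17.1 and pandas 2.3.3.

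Names follow a rule: the 12 largest ratios each way in the insulin-top class and the 5 over all barcodes, past 2-fold, in at least 5% of barcodes and with no barcode above 25% of UMIs; up to 4 members of each list past 2-fold; the mitochondrial rows, hormones, driver and reporter. Genes keeping their UMIs per barcode were named after their values were seen. The members and the 26 gene lists were chosen with earlier results of these data known. Gene positions and lengths are from GENCODE vM21, in which 15956 of 16157 symbols had 1 entry.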

Additional observations from a re-analysis of the deposited data

Results flagged for a closer look

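Among genes measured in both hormone classes, 229 were more than 2-fold higher and 114 lower in the mitochondrial-high barcodes of both, and 5 went past 2-fold in opposite directions. A further 168 were higher and 34 lower in the insulin-top class alone, 12 higher and 42 lower in the glucagon-top class alone, and 167 past 2-fold in neither. Of all genes, 55.5% of insulin-top and 34.9% of glucagon-top ones were higher, and 18.7% and 16.9% lower. These shares are over all genes of each class and not over those measured in both. Some overlap would be present without any link between the classes, and its size was not worked out. The difference between the classes was not tested, since there is 1 library. Ins1 had a log2 ratio of -1.57 among insulin-top and 1.54 (1.535 before rounding) among glucagon-top barcodes, and Ins2 of -1.43 and 1.52. In the glucagon-top class the unthinned insulin count was a median of 91 UMIs over 20% mitochondrial and 102 below. Gcg had 2.22 among insulin-top and -1.23 among glucagon-top barcodes, and in the insulin-rich class the medians were 4 and 7 Gcg UMIs per barcode. Txnip, an inhibitor of thioredoxin, had 1.35 among insulin-top and -1.26 among glucagon-top barcodes, and Ppp1r15a, a regulatory subunit of a stress phosphatase, had 1.19 and -1.09. Both rest on 5 thinned UMIs in the glucagon-top mitochondrial-high barcodes, and their intervals there, -2.97 to 0.09 and -2.81 to 0.28, include 0.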

How the results depend on the processing

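The share of barcodes in the set was 30.9%, 25.5%, 16.1% and 5.41% at limits of 10%, 15%, 30% and 50%. Insulin was top in 66.7% with a 10% hormone minimum, and in 74.3% and 98.4% at limits of 10% and 50%. Glucagon was top in 11.0% with the minimum and 1.61% at 50%, and somatostatin in 0% with the minimum or at 50% and in 3.96% at 10%. The ratio of genes per barcode was 1.81 and 1.83 at depths of 500 and 2000, and 1.01 without hormone rows. The gene counts that follow are not shares, because the number of genes measured also changes with the filter and the scaling. In the main setting of the insulin-top class, 592 of 1067 genes were higher (55.5%) and 199 lower (18.7%). There, higher genes numbered 5590 without the level filter and 183 with a filter of 2 per 10000. Lower genes numbered 533 without hormone rows, 461 with native depth weighted, 928 without the filter, 110 with a filter of 2, 96 in the insulin-rich class and 511 there without hormone rows. Over all barcodes, higher genes numbered 297 with depth weighted, 5280 without the filter and 175 with a filter of 2, and lower genes 497 without hormone rows, 384 with depth weighted, 1031 and 116.

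Called ratios that changed sign were mostly those of other cell types. In the insulin-rich class Saa3 was 2.77, Dcn 0.77, S100a6 1.77, Ifitm3 1.77, Ctrb1 3.94, Prss2 3.94, Spp1 1.36, the acinar list 3.06, the duct list 0.81 and the macrophage list 0.66. There without hormone rows, C3 was 0.25, Lyz2 0.84, Vim 0.84, Pcsk2 -0.23, Pam -0.40, Ctrb1 2.71, Prss2 3.54 and the acinar list 2.73. Several of these ratios rest on a few UMIs, and the construction leaves out the barcodes that carry those genes. With depth weighted, Iapp was 0.59, Ins1 0.72, Ins2 0.80, Ppp1r15a -0.33, Jun -0.11 and Egr1 -0.0044. Without hormone rows Pam was -0.25, and in barcodes over 50% Gpx3 was -0.0203. The cause was not tested for these. The insulin-rich limit, the glucagon-top comparison, the transcript lengths and the top hormone after thinning were chosen after seeing the data. No paired analysis was possible because there is 1 group. Depth limits genes under about 1 UMI per 10000, the driver and the reporter.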
